A study of Mus musculus with 4 samples.

Results

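The immediate early genes *Nr4a1*, *Junb*, *Btg2*, *Ier3* and *Egr2* were examined by name in RNA sequencing of ILC3s from the large intestine. All 5 are among the 2179 genes of the authors' deposited table. The cells were lineage-negative GFP-positive lymphocytes of the lamina propria, sorted on day 3 from *Rag1*-/- littermates with a GFP reporter given PBS or 1 µg of α-DR3 (4C12). This antibody stimulates death receptor 3 (DR3), the lymphocyte receptor of the TNF family ligand TL1A. Both groups lacked *Rag1*, and so mature T and B cells, and carried 1 copy of the GFP reporter allele that was used for the sort. Each group had 2 libraries, each from cells pooled from several mice. Values are the authors' group means in FPKM, the number of sequenced fragments scaled to transcript length and to the mapped fragments of a library. Values of single libraries are not used here, so the means carry no error, the depth is unknown and no test between the groups was run. A gene is listed only if it passed the authors' significance limit for a difference between the groups and had a sufficient mean, so being listed with a difference is no finding about these genes.

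Immediate early genes are transcribed within minutes of a signal, without new protein synthesis, from promoters that are already open to factors such as CREB, serum response factor and NF-κB. Their messages are mostly short-lived, and their products either switch on later genes or end the response. In lymphocytes they mark recent stimulation. By the paper's methods, the intestine was shaken in EDTA and digested with collagenase before lymphocytes were isolated. Whether this handling added to the levels in either group was not tested. *Nr4a1* (Nur77) encodes an orphan nuclear receptor, *Junb* a subunit of the AP-1 transcription factor and *Egr2* a zinc finger transcription factor. *Btg2* encodes an antiproliferative protein that recruits the deadenylase that shortens poly(A) tails, and *Ier3* a stress-inducible regulator of cell survival that is a target of NF-κB.

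The members split by level. The abundant *Junb*, *Nr4a1* and *Btg2* were lower after α-DR3, and the scarce *Ier3* and *Egr2* were higher. Thus 3 members had a lower and 2 a higher mean, and all 5 differed by at least 1.5-fold, *Egr2* by less (1.37-fold higher) once each group is divided by its summed FPKM. Among all listed genes 38.4% were at least 1.5-fold lower and 37.1% at least 1.5-fold higher, so passing this limit does not set the members apart from the list. The 5 means summed to 6278 FPKM in PBS and 3352 FPKM in α-DR3, a sum set mainly by *Junb* and *Nr4a1*.

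*Nr4a1* (ENSMUSG00000023034.6; chromosome 15, 101254269 to 101274795, plus strand of GRCm38) had a mean of 1516 FPKM in PBS and 589 FPKM in α-DR3. Its ratio of α-DR3 to PBS was 0.389, or 2.57-fold lower, with a log2 ratio of -1.36. This was the lowest ratio of the 5 members and the 86th lowest of all 2179 listed genes. Of the 164 listed genes with a PBS mean over 100 FPKM, 72 were lower in α-DR3, against 45.4% of all listed genes. Among the 164, *Nr4a1* had the 4th lowest ratio, after *Fam189b* (0.349), *Gimap3* (0.360) and *Cd226* (0.385). The highest of those in PBS was *Gimap3* with 355 FPKM, so *Nr4a1* was the most abundant message of the 4. In the same set of 164 genes *Btg2* had the 22nd and *Junb* the 40th lowest ratio.

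*Junb* (ENSMUSG00000052837.4; chromosome 8, 84974484 to 84978718, minus strand) was the most abundant member in both groups, with 4051 FPKM in PBS and 2370 FPKM in α-DR3. Its ratio was 0.585, a 1.71-fold lower mean and a log2 ratio of -0.77, the smallest change of the 5 on that scale as deposited; *Egr2* had the smallest after division by the summed FPKM or the median ratio. In FPKM, however, its difference of -1682 was the largest, against -927 for *Nr4a1*. A short noncoding transcript of *Junb* shares exon bases with *Prdx2* on the opposite strand, whereas the single-exon coding transcript shares none.

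*Btg2* (ENSMUSG00000020423.6; chromosome 1, 134075170 to 134079120, minus strand) had 695 FPKM in PBS and 358 FPKM in α-DR3. The ratio was 0.515, so the mean was 1.94-fold lower, with a log2 ratio of -0.96 that lay between those of *Junb* and *Nr4a1*.

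*Ier3* (ENSMUSG00000003541.6; chromosome 17, 35821684 to 35822923, plus strand) had 12.1 FPKM in PBS and 27.8 FPKM in α-DR3, a 2.30-fold higher mean and a log2 ratio of 1.20. *Egr2* (ENSMUSG00000037868.8; chromosome 10, 67535475 to 67542188, plus strand) had 3.81 FPKM in PBS and 7.345 FPKM in α-DR3, a 1.93-fold higher mean and a log2 ratio of 0.95. In absolute terms *Ier3* was 15.7 FPKM and *Egr2* 3.54 FPKM higher. Both differences are small beside those of the 3 abundant members.

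**Figure D1:**
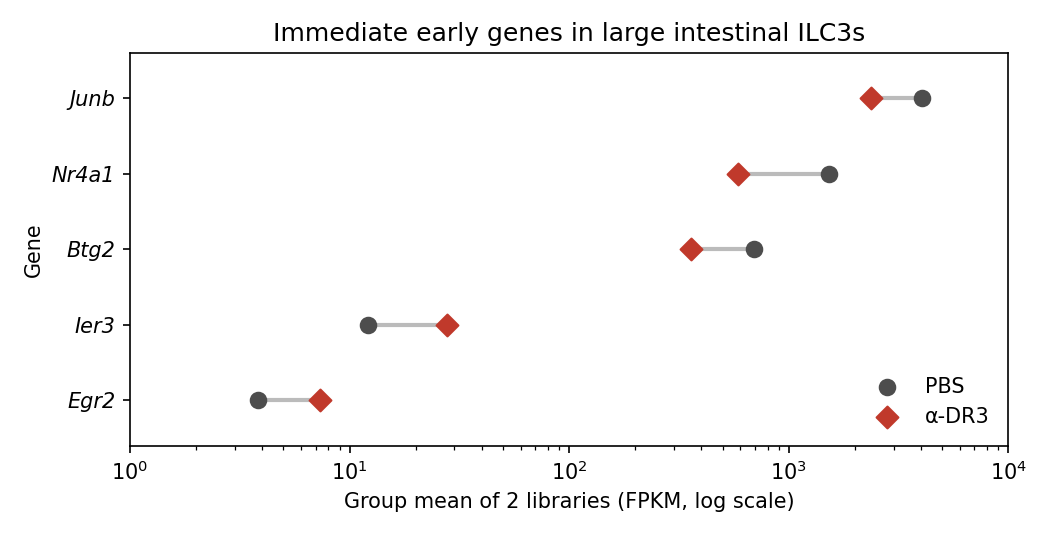
Mean FPKM of the 5 immediate early genes in PBS (grey circles) and α-DR3 (red diamonds) on a log axis, with genes ordered by PBS mean and a line joining the groups. Each point is the authors' mean of 2 libraries, so there are no error bars; *Junb*, *Nr4a1* and *Btg2* lie to the left in α-DR3 and *Ier3* and *Egr2* to the right.

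The order of the members was the same in both groups, *Junb*, *Nr4a1*, *Btg2*, *Ier3* and then *Egr2*, but the distances between them were not. *Junb* was 1063 times the level of *Egr2* in PBS and 323 times in α-DR3. *Nr4a1* was 126 times the level of *Ier3* in PBS and 21.2 times in α-DR3. Within the 3 abundant genes, *Junb* stood 2.67-fold above *Nr4a1* in PBS and 4.02-fold above it in α-DR3, while *Nr4a1* stood 2.18-fold above *Btg2* in PBS and 1.65-fold in α-DR3. Whether neighbours in this order differed beyond the spread between libraries cannot be told from the means.

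By FPKM rank among all 2179 listed genes, *Junb* was 2nd in PBS, behind *Il22* alone, and 5th in α-DR3. *Nr4a1* moved from rank 6 to rank 34, and *Btg2* from rank 19 to rank 51. In the other direction, *Ier3* moved from rank 981 to rank 583 and *Egr2* from rank 1579 to rank 1257. These are ranks within a list selected for differences, not among all expressed genes. Of the 9 listed genes with at least 1000 FPKM in PBS, 5 were lower in α-DR3, against 45.4% of all listed genes. They were *Junb*, *Zfp36*, 2310016C08Rik, *Nr4a1* and *Gadd45b*. The other 4 were *Il22*, *Fth1*, *Gp49a* and *Cd82*, all with a higher mean. In α-DR3, *Il22* (44537 FPKM), *Fth1* (4189 FPKM), *Cd74* (3249 FPKM) and *Cd82* (2713 FPKM) ranked above *Junb*.

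**Figure D2:**
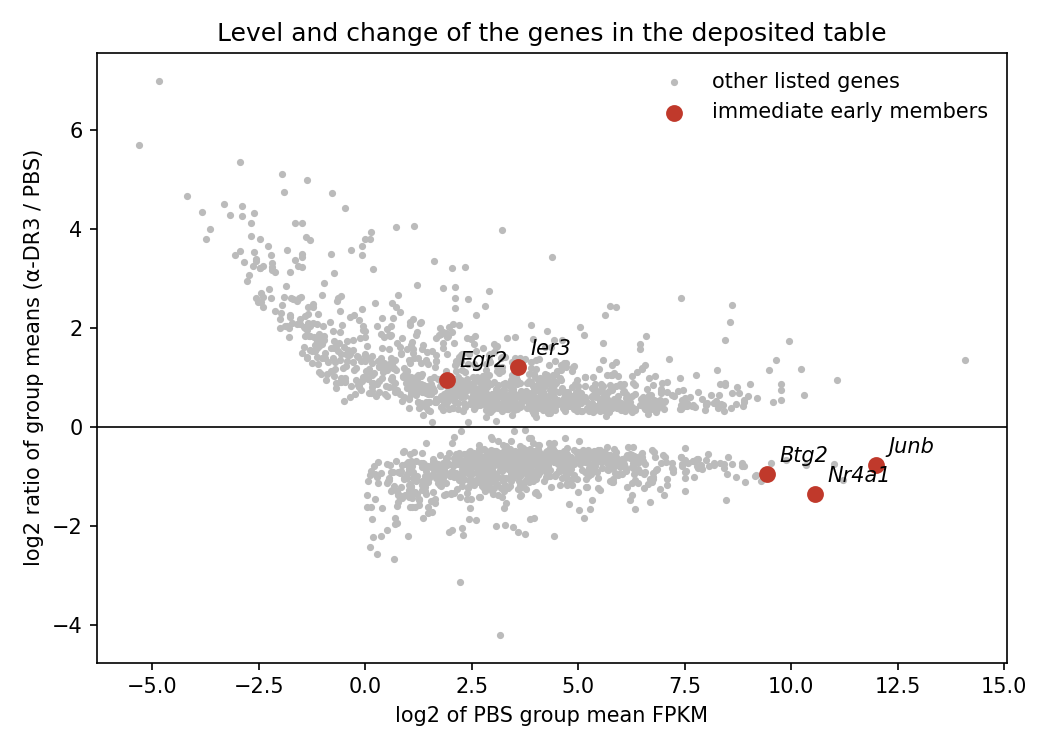
Log2 ratio of the group means (α-DR3 over PBS) against the log2 of the PBS mean FPKM for the 2169 listed genes with both means above 0, with the 5 members in red. *Nr4a1*, *Junb* and *Btg2* lie at the high end of expression below the zero line, and *Ier3* and *Egr2* in the middle of the range above it; few genes lie close to 0 in this list, which the authors selected for differences.

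*Egr2* needs a caution on length. For each gene, a length was worked out as the authors' mean CPM over all libraries, taken from its log2, divided by the mean FPKM of both groups, which gives kilobases. For *Nr4a1*, *Junb*, *Btg2* and *Ier3* it was 97.0%, 97.0%, 97.8% and 97.9% of the length listed for the gene. For *Egr2* it was 2784 bases, or 35.4% of the listed 7863 bases. The annotation holds 7 *Egr2* transcripts, of which the 3 longest have 2965, 2864 and 2665 bases, so the implied length falls among these. Over all listed genes the median was 50.8%, with quartiles of 29.9% and 95.0%, so *Egr2* is ordinary in this respect. Its FPKM is thus read as a level per length of its full transcripts and not of the listed gene length.

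The sequences before the transcription start show which inducible elements each member carries. Printed here are the 250 bases upstream of each start, from RefSeq on GRCm38.p6 and read 5′ to 3′ on the strand of the gene, so that the elements of each can be seen. Capitals mark matches, on either strand, to the CRE half-site TGACG, the full CRE TGACGTCA (which holds 2 half-sites), the EGR site GCGNGGGCG, the serum response element and the NF-κB site. The windows are chr15:101266596-101266845 for *Nr4a1*, chr8:84978749-84978998 for *Junb*, chr1:134079156-134079405 for *Btg2*, chr17:35821463-35821712 for *Ier3* and chr10:67537619-67537868 for *Egr2*, the last chosen among 5 windows because it lies at the start of the main transcript. The *Nr4a1* window, the one RefSeq window of that gene, precedes the start at 101266846, whereas the longest annotated transcript, taken as the main one for its 3′ end, starts upstream at 101254269, which no printed window covers.
*Nr4a1*: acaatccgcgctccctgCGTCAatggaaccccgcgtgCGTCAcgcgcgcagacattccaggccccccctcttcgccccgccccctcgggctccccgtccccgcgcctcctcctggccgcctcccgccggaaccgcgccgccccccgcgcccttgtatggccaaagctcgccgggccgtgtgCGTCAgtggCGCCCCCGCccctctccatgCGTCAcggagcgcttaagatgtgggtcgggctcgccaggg
*Junb*: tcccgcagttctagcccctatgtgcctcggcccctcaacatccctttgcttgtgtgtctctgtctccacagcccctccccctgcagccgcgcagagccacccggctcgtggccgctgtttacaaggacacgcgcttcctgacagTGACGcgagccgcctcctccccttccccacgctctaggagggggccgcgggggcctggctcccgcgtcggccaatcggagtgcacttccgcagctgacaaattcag
*Btg2*: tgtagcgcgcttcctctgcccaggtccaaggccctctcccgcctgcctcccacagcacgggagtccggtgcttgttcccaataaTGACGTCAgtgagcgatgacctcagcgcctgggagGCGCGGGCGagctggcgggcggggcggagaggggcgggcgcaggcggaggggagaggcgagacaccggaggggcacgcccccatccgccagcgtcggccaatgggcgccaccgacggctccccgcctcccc
*Ier3*: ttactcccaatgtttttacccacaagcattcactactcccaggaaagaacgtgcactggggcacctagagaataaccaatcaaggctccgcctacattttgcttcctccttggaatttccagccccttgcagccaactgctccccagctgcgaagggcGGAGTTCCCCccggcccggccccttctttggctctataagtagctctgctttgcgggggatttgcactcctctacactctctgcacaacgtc
*Egr2*: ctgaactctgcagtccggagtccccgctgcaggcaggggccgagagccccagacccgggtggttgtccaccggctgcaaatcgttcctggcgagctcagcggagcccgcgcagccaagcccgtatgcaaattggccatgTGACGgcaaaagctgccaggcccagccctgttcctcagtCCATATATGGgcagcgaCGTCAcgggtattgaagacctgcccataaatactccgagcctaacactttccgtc

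*Nr4a1* held 4 CRE half-sites, 2 of them within 69 bases of the start, and 1 EGR site between a pair of half-sites. *Btg2* held the 1 full CRE found among the members, at 166 to 159 bases before the start, and an EGR site. *Junb* held 1 half-site. All 3 members that were lower in α-DR3 therefore held a half-site, but so did *Egr2*, with 2, and of 32851 promoter windows of the same length 17.8% held at least 1 and 0.137% at least 4. The full CRE was in 1.55% of windows and the EGR site in 4.70%.

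The 2 members that were higher carried elements not matched in the other printed windows. *Egr2* held a serum response element at 72 to 63 bases before the start, present in 1.47% of windows. *Ier3* held no CRE half-site and 1 NF-κB site, at 92 to 83 bases before its start, present in 7.25% of windows. Of the other *Egr2* windows, the one of the most upstream start held 3 NF-κB sites. No member's printed window matched the AP-1 site TGANTCA (6.75% of windows) or AAAGGTCA, the site bound by an Nr4a1 monomer (1.34% of windows). Among windows of listed genes the CRE half-site was in 23.7%, the EGR site in 8.77% and the NF-κB site in 10.6%. A match describes letters in the window, and binding was not measured.

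**Figure D3:**
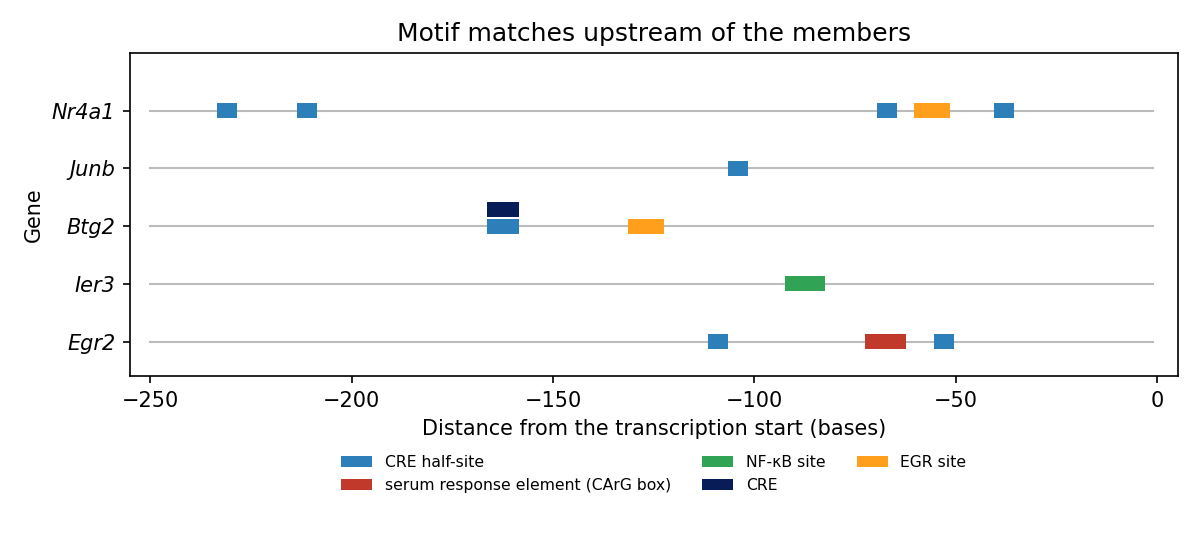
Positions of the motif matches in the 250 bases upstream of each member, in bases from the transcription start, with 1 line per gene and 1 colour per motif. *Nr4a1* carries 4 CRE half-sites, *Btg2* the full CRE with its half-sites drawn beneath it, *Egr2* the serum response element and *Ier3* the NF-κB site.

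The 3′ untranslated region is the other place where immediate early messages are controlled, since AU-rich elements there are bound by decay factors of the Zfp36 family. The core TATTTAT (written as DNA) was counted in the 3′ untranslated region of the main GENCODE M21 transcript of each member. *Ier3* held 4 copies in 613 bases, or 6.53 per kilobase, and *Btg2* held 1 copy in 2199 bases. *Nr4a1* (543 bases), *Junb* (485 bases) and *Egr2* (1200 bases) held 0 copies of these exact letters. At least 1 copy was present in 26.1% of 20723 protein-coding genes, and at least 2 in 9.60%. Among listed genes 29.4% of those higher and 30.0% of those lower in α-DR3 held a copy. The sites are shown with the bases around them and the core in capitals, since *Ier3* is set apart from the other members by them.
*Btg2*, bases 94 to 118 of the 3′ untranslated region: atgaagagcTATTTATacatgtttt
*Ier3*, bases 173 to 197 of the 3′ untranslated region: tctaattaaTATTTATgTATTTATg
*Ier3*, bases 223 to 247 of the 3′ untranslated region: tgtatgtaaTATTTATtctaactta
*Ier3*, bases 278 to 302 of the 3′ untranslated region: taacacagaTATTTATtacgattta

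*Zfp36*, which encodes tristetraprolin and is itself an immediate early gene, had 2390 FPKM in PBS and 1141 FPKM in α-DR3, and *Zfp36l1* had 940 and 595 FPKM, both lower in α-DR3. Of the 2 members with a site, *Btg2* was lower and *Ier3* higher. Message stability was not measured.

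The other genes of the response were read from lists of related genes. The immediate early lists also hold relatives from the members' families that need not be immediate early genes, and *Zfp36* was counted among the feedback inhibitors instead. Of 56 further genes on these lists, 16 are listed, with 11 lower and 5 higher in α-DR3 and a median log2 ratio of -0.62. Over all listed genes 45.4% were lower and the median log2 ratio was 0.39. When each group was divided by its summed FPKM, which moves every log2 ratio down by 0.50 and is swayed by *Il22*, 13 of the 16 further genes and 57.2% of all listed genes were lower. By level, with a limit of 20 FPKM set after the values were seen, 10 of the 11 further genes with a PBS mean over it were lower, against 47.9% of all listed genes over that level (10 and 69.3% after division by the summed FPKM). Of the 5 further genes at or under it 4 were higher, against 55.8% of all listed genes at that level, and 2 and 48.3% after division by the summed FPKM, which turned *Ets2* (-0.03) and *Gadd45a* (-0.11). *Batf2*, one of these 5, could be listed only if it was higher. The genes not listed were not analysed here, so the counts describe listed genes and not the families.

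The relatives of each member gave the following. In the Nr4a family, *Nr4a2* had 78.2 FPKM in PBS and 58.8 FPKM in α-DR3, a log2 ratio of -0.41, well short of that of *Nr4a1*. Among the 7 listed AP-1 genes 5 were lower, against 45.4% of all listed genes (5 and 57.2% after division by the summed FPKM). Besides *Junb*, these were its partners *Fosl1* (5.46 and 2.40 FPKM, log2 ratio -1.19) and *Fosl2* (69.0 and 44.4 FPKM, -0.63) and the small Maf genes *Mafk* (-0.83) and *Maff* (-0.51). The 2 higher ones were of the Batf group. *Batf3*, a factor of dendritic cells and lymphocytes, had 31.9 FPKM in PBS and 56.4 FPKM in α-DR3, and *Batf2* was near 0 in PBS, with 0.025 FPKM, and had 1.29 FPKM in α-DR3. *Btg2* was joined by both Tob genes, which encode antiproliferative proteins of the same family. *Tob2* had a log2 ratio of -0.69 and *Tob1* of -0.60, so all 3 listed genes of the family were lower. *Ier3* and *Egr2* were the listed genes of the IER and EGR lists.

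Of 7 other immediate early genes listed, 4 were lower, against 45.4% of all listed genes (6 and 57.2% after division by the summed FPKM). *Gadd45b*, a stress-induced activator of the p38 pathway, had 1299 FPKM in PBS and 764 FPKM in α-DR3. *Klf10* (-1.05), *Hes1* (-1.14) and the kinase gene *Plk3* (-0.68) also had negative log2 ratios. *Trib1*, which encodes a pseudokinase scaffold for protein degradation, was higher at 8.56 FPKM against 2.95 FPKM in PBS, and so at a level close to that of *Egr2*. *Ets2* (0.46) and *Gadd45a* (0.39) had the smaller positive log2 ratios, which turn sign after that division.

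Of 10 listed feedback inhibitors of MAPK and NF-κB signaling, 6 were lower and 4 higher, with a median log2 ratio of -0.84, against 45.4% lower over all listed genes. After division by the summed FPKM, 7 of the 10 and 57.2% of all listed genes were lower. The margin over the list rests on 10 genes and was not tested. As deposited, the lower ones included the MAPK phosphatases *Dusp2* (40.2 FPKM in PBS, 14.4 FPKM in α-DR3) and *Dusp4* (183 and 90.1 FPKM), the receptor tyrosine kinase inhibitor *Spry2* (212 and 105 FPKM) and the nuclear IκB gene *Nfkbid* (483 and 223 FPKM). *Dusp2*, at a log2 ratio of -1.48, was the only one of the 6 whose ratio was below that of *Nr4a1*. Higher were *Socs1* (0.86) and *Socs3* (0.64), which are induced by cytokine signaling, the MAPK phosphatase *Dusp8* (3.83 FPKM in PBS and 5.49 FPKM in α-DR3, log2 ratio 0.52) and *Nfkbie* (0.49, or -0.01 after division by the summed FPKM). Among NF-κB subunits and targets, 4 of 6 listed genes were higher, against 54.6% of all listed genes, with *Relb* at a log2 ratio of 0.86, *Traf1* at 0.68, *Nfkb2* at 0.64 and *Cd83* at 0.47 (-0.03 after division by the summed FPKM). *Birc3* (-0.67) and *Bcl2l1* (-0.84) were lower. *Ier3*, itself an NF-κB target, had a larger log2 ratio than any of these 6.

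**Figure D4:**
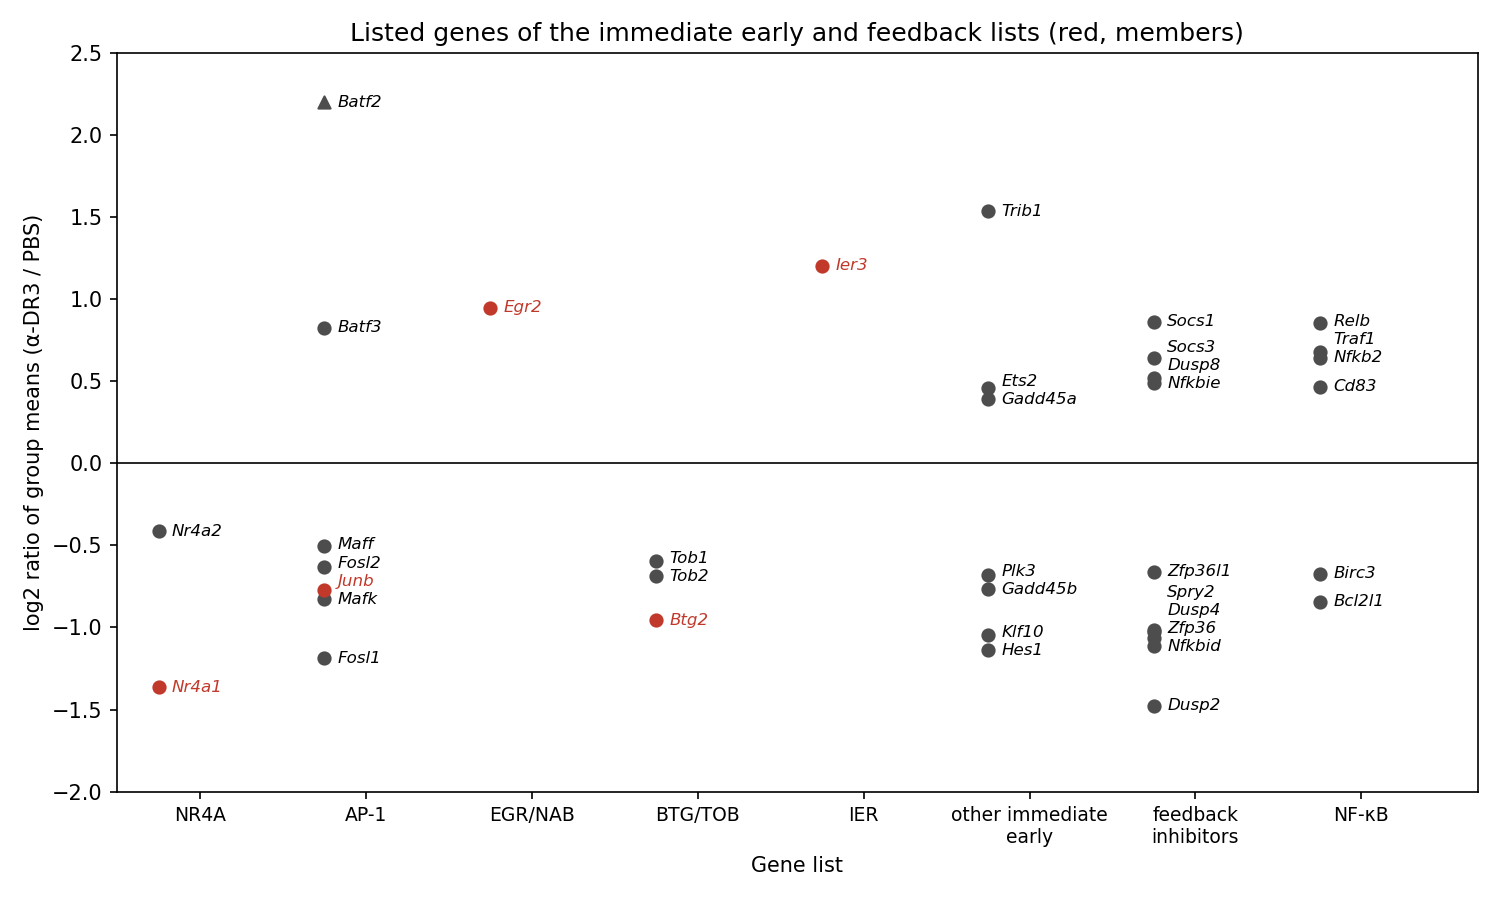
Log2 ratio of the group means (α-DR3 over PBS) for each listed gene of 8 gene lists, with the members in red. Labels are spread where points lie close, and *Batf2*, whose log2 ratio is 5.69, is drawn as a triangle at the upper edge; all 3 BTG/TOB genes and both NR4A genes lie below 0, while *Ier3*, *Egr2* and most NF-κB genes lie above it as deposited (of these, *Cd83* turns to -0.03 after division by the summed FPKM).

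The genes most like each member in PBS level and log2 ratio, by distance between the 2 values on the log2 scale, were as follows. For *Nr4a1* the nearest were *Gadd45b* (distance 0.64), *Zfp36* (0.72) and 2310016C08Rik (0.76). For *Junb* they were *Zfp36* (0.82), 2310016C08Rik (0.97) and *Nr4a1* itself (1.54). Both had no close neighbour, since few listed genes are as abundant. *Btg2* was near *Tiparp* (0.20), *Ucp2* (0.24) and *Gimap6* (0.26), *Ier3* near *Traf3* (0.11), *Ly86* (0.11) and *Igfbp4* (0.13), and *Egr2* near *Eps8l1* (0.02), *Lrrc49* (0.05) and *Prnp* (0.05). The likeness rests on 2 group means only.

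The sorted cells carried the messages of ILC3s in both groups, with *Il22* the most abundant listed gene. Of 18 ILC3 markers 12 are listed, with 9 higher, against 54.6% of all listed genes (42.8% after division by the summed FPKM), among them *Ccr6* (29.5 and 68.3 FPKM) and *Tnfrsf25*, the gene of DR3, whose log2 ratio turned to -0.20 after division by the summed FPKM and to -0.09 after division by the median ratio. Lower ones included *Ncr1* (460 and 279 FPKM) and *Tbx21* (121 and 51.0 FPKM). *Ncr1* and *Tbx21* mark the NCR+ ILC3s, and they were lower together with *Nr4a1*, *Junb* and *Btg2*. In bulk samples fewer cells of a type and less RNA per cell cannot be told apart.

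Listed markers of macrophages, dendritic cells and stroma were higher in α-DR3, as were *Ier3* and *Egr2*. Of all listed genes 54.6% were higher (42.8% after division by the summed FPKM). Of 17 macrophage and monocyte markers 9 are listed, all higher in α-DR3, and their summed level was 9.99 FPKM in PBS and 65.3 FPKM in α-DR3. *Lyz2* had 4.09 FPKM in PBS and 37.9 FPKM in α-DR3, *Cd68* 3.11 and 7.17 FPKM, *Cd14* 0.64 and 3.91 FPKM, and the defining marker *Adgre1* (*Emr1* in the table) 0.19 and 1.18 FPKM. All of the 9 except *Lyz2* and *Cd68* had so low a mean in PBS that they could be listed only if they were higher. All 4 listed of 9 dendritic cell markers were higher, with a summed level of 45.2 and 116 FPKM, most of it from *Zbtb46* (42.3 and 71.4 FPKM) and *Ccl17* (2.22 and 37.1 FPKM). The 6 listed of 8 stromal markers were higher too, with a summed level of 121 and 169 FPKM, nearly all of it *Vim*, whose log2 ratio of 0.42 became -0.08 after division by the summed FPKM. Likewise, the dendritic cell markers *Ccl22* (0.13 FPKM in PBS) and *Fscn1* (0.57 FPKM) could be listed only if they were higher. The same held for the stromal markers *Col1a1* (0.97 FPKM in PBS), *Col1a2* (0.625 FPKM) and *Lum* (0.6 FPKM). Which cells held *Zbtb46* and *Vim* was not tested. In the flow cytometry of the study the lineage markers included CD11b and CD11c, so such a gate would leave out most macrophages and dendritic cells, though the markers of this sort are not stated separately. The part of these cells in the higher means of *Ier3* and *Egr2* was not tested, and the other defining macrophage markers *Csf1r* and *Itgam* were not analysed here.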

How the data were processed

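Poly(A) RNA of sorted ILC3s was sequenced in 2 libraries from PBS-treated and 2 from α-DR3-treated mice. Per the labels, the reads were mapped to GRCm38.p5 by STAR 2.5, quantified by RSEM 1.2 and compared with edgeR 3.18.1. The authors deposited 1 table of 2179 genes with the mean FPKM of each group, not rescaled between groups, the gene length and a log2 mean CPM over all libraries. Its column named wt was taken as PBS, the one group besides α-DR3. The table also holds the fold changes, likelihood ratios, p-values and FDR of the authors' own comparison, which were not used. Because a planned test needs values per library, none was run.

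Ratios of group means (no pseudocount), their log2 and FPKM ranks among the listed genes were computed in Python 3.11.15 with pandas 2.3.3 and numpy 2.4.6, and the code was checked on simulated means. Pseudocounts of 0.1, 1 and 5, scaling by the summed FPKM or the median ratio, and a filter at 5 FPKM in the higher group were tried, and scaling of the lists by the summed FPKM was added after seeing the data. Named genes are the 5 members, listed genes of 9 pathway and 8 cell marker lists, the 3 genes nearest each member, and genes singled out by rank after their values were seen. List genes were matched by Ensembl identifier, so *Emr1* was read as *Adgre1*, and of the 2 rows named *Dusp8*, both higher in α-DR3, the one with a current identifier was used. The value of 1 marker gene is not reported here. The members and lists were chosen with earlier results of these data known. GENCODE M21, on the same build, held 2149 of the 2179 identifiers. Promoters came from RefSeq (GRCm38.p6), which held all 5 members. Motif matches were counted on both strands.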

Additional observations from a re-analysis of the deposited data

How the results depend on the processing

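Each of the 5 ratios kept its direction and stayed within 1.5-fold of its value under all 3 pseudocounts, after division by the summed FPKM of the listed genes (1.41 times higher in α-DR3) and after division by their median ratio (1.31, or 0.39 on the log2 scale). *Egr2*, the lowest in level, came closest to no change and fell under 1.5-fold, at 1.37 after division by the summed FPKM, 1.40 with a pseudocount of 5 and 1.48 after division by the median ratio. *Ier3* was at 1.63 after division by the summed FPKM, and *Junb* at 0.415. By the authors' mean log2 CPM over all libraries, which is not scaled to length and does not separate the groups, the ranks were 7 for *Nr4a1*, 2 for *Junb*, 13 for *Btg2* and 1141 for *Ier3*, against 34, 5, 51 and 583 by FPKM in α-DR3. With only the 1638 genes over 5 FPKM in either group, the number of higher genes became 1 for AP-1, 3 for macrophage and monocyte, 1 for ILC2 and 2 for stromal markers, and no ILC2 marker (0) remained lower, since fewer genes enter. Division by the summed FPKM, applied to the lists after seeing the data, left 1 higher gene among the other immediate early genes and made 1 stromal marker lower. No paired analysis was possible because the deposited columns used here are group means with no replicate numbers, and for the same reason no library was left out in turn and no limma or edgeR fit was run. The depth of the libraries is unknown, so the counting error of the low *Egr2* and *Ier3* means cannot be given.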

Other observations

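Of 14 heat shock genes 2 are listed, both with a higher mean in α-DR3, as had 54.6% of all listed genes. Of heat shock family genes outside those 14, named after their values were seen, *Hspa4l* was lower (10.2 FPKM in PBS and 7.02 FPKM in α-DR3) and *Hspa14* higher (2.03 and 3.00 FPKM). *Hspb1* had 12.4 FPKM in PBS and 32.4 FPKM in α-DR3, and *Hsp90b1*, a chaperone of the endoplasmic reticulum, had 241 and 353 FPKM. Of 7 ILC2 markers 3 are listed, with *Klrg1* (4.38 and 10.9 FPKM) and *Il5* (0.19 and 1.82 FPKM) higher and *Il1rl1* (3.40 and 1.81 FPKM) lower. Of 10 T cell and B cell markers 1 is listed, *Cd79b*, with 10.9 FPKM in PBS and 27.2 FPKM in α-DR3. None of the 8 granulocyte and 7 epithelial markers is listed.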
